A study of Mus musculus with 18 samples.

Results

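The comparison is LPS against control in the total mRNA of RAW264.7 cells, and it compares 6 of the 18 libraries of the series. Its members are all libraries whose labels give total mRNA as the RNA source and either 6 h of LPS (3 libraries) or vehicle (3 libraries), paired by replicate number. RAW264.7 is a transformed mouse macrophage line, so every value comes from a single cell line, and the paper describes 3 independent experiments. Control cells received the vehicle DMSO and nothing else, and the labels do not give a time for the control libraries. The LPS came from Salmonella enterica, serotype minnesota, and was used at 500 ng/mL. The study also sequenced polysome-associated mRNA from the same lysates and cells given the mTOR inhibitor torin1 with LPS. Summed counts ran from 27800983 to 38175777 per control library and from 32099800 to 36698363 per LPS library.

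Levels are in CPM, counts per 1000000 counts of a library, after scaling of the library totals by the trimmed mean of M values (TMM). Changes are log2 fold changes, LPS over control, from a fit that takes replicate number as a block and also holds the 3 total mRNA libraries given LPS with torin1, 9 libraries in all. A gene rose or fell here when its false discovery rate (FDR) was at most 0.25 by edgeR's quasi-likelihood test with Benjamini-Hochberg adjustment over all 11243 protein-coding genes of the table. Values after "rose by" and values in brackets without a name are log2 fold changes. The strong rule asks for an FDR of at most 0.05 and at least a 2-fold change. For 48 gene lists, counts of members are given beside the median log2 fold change relative to that of all genes. CPM are relative to the other genes of a library, so fewer cells and less RNA per cell cannot be told apart in these bulk data.

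LPS is sensed by TLR4 on macrophages, which signals through MYD88 to NF-kB, MAP kinases and AP-1, and through TRIF to IRF3 and the type I interferon genes. Secreted interferon then acts back on the cells to raise antiviral genes. Macrophages activated in this way are known to slow their division and to change glucose, amino acid and lipid metabolism.

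After LPS, the mRNA of RAW264.7 cells moved toward cytokines, chemokines, interferon-stimulated genes and many regulators of NF-kB. Surface receptors for costimulation and for phagocytic recognition rose beside them. Genes of DNA replication, histones, mitosis and nucleotide synthesis fell together. Shifts in the machinery of translation, mitochondrial respiration and the tricarboxylic acid cycle were small in size, and for translation and respiration the direction depends on scaling.

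Of 11243 genes tested, 3971 (35.3%) rose and 4252 (37.8%) fell with the replicate block in the model. By the strong rule, 995 genes (8.85%) were higher and 995 (8.85%) were lower. Equal numbers hide unequal sizes, because 407 genes rose at least 4-fold against 167 that fell as much, and 96 rose at least 16-fold against 1. No gene fell 32-fold, while 52 rose that far and 25 of them at least 64-fold. The 99th percentile of the log2 fold change was 3.67 and the 1st percentile was −2.17. Among called genes, 7374 (89.7%) had the same sign in the 3 experiments, against 7756 (69%) of all genes. Correlation of the log2 ratios across genes between experiments was 0.81 for experiments 1 and 2, 0.88 for 1 and 3, and 0.87 for 2 and 3, and genes are not independent replicates.

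The direction of small changes depends on scaling. With library totals in place of TMM, the median of all genes moved by −0.37, from −0.02 to −0.39, and the share of rising genes among called genes was 20.6% in place of 48.3%. The same step took the share of higher genes under the strong rule from 50% to 25.2%. TMM assumes that most genes keep their level, whereas library totals compare shares of all counts. Over all genes, library totals give 1915 up and 7395 down, to be read beside such counts for a list. For these reasons a list median is given relative to all genes, and lists whose own median changes sign with library totals are named.

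Genes picked by the strong rule in these same libraries differ in share of counts by that choice, and the values give the size. Genes higher by the strong rule held 6.41%, 7.65% and 6.59% of the counts in control and 23.1%, 23.5% and 21.7% with LPS. Genes lower by the strong rule went from 4.54%, 4.22% and 4.56% to 1.18%, 1.33% and 1.48%. Level and direction were linked across genes, in part by construction, because a rise with LPS also lifts the mean CPM that sets the class. In the highest of 5 equal classes by mean CPM (up to 12887), 60.3% of genes rose and 18.8% fell. In the lowest class (0.0524 to 5.78 CPM), 22.3% rose and 42.1% fell.

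**Figure D1:**
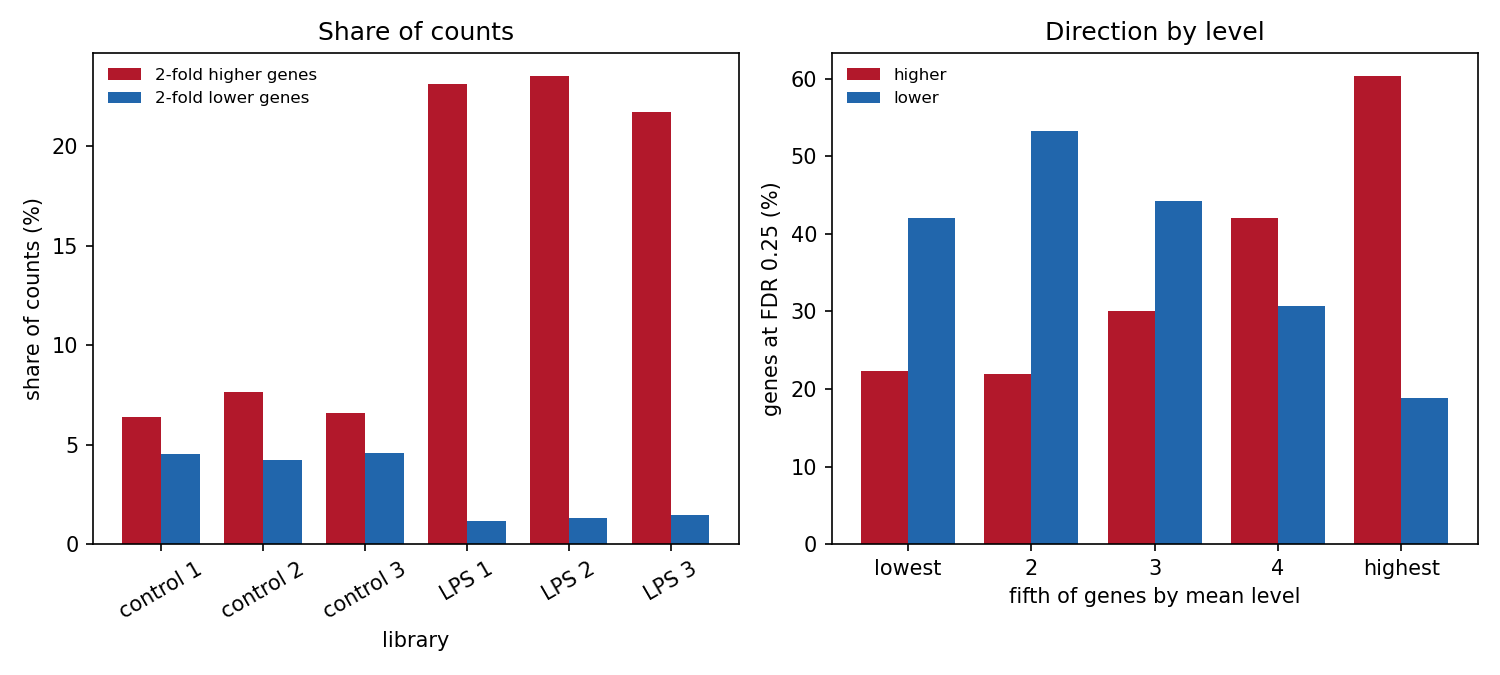
Share of counts held by the genes higher or lower by the strong rule in each library, and direction of change by level. Strong higher genes held 6.41% to 7.65% of counts in control and 21.7% to 23.5% with LPS, and genes of the highest level class rose in 60.3% of cases.

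**Figure D2:**
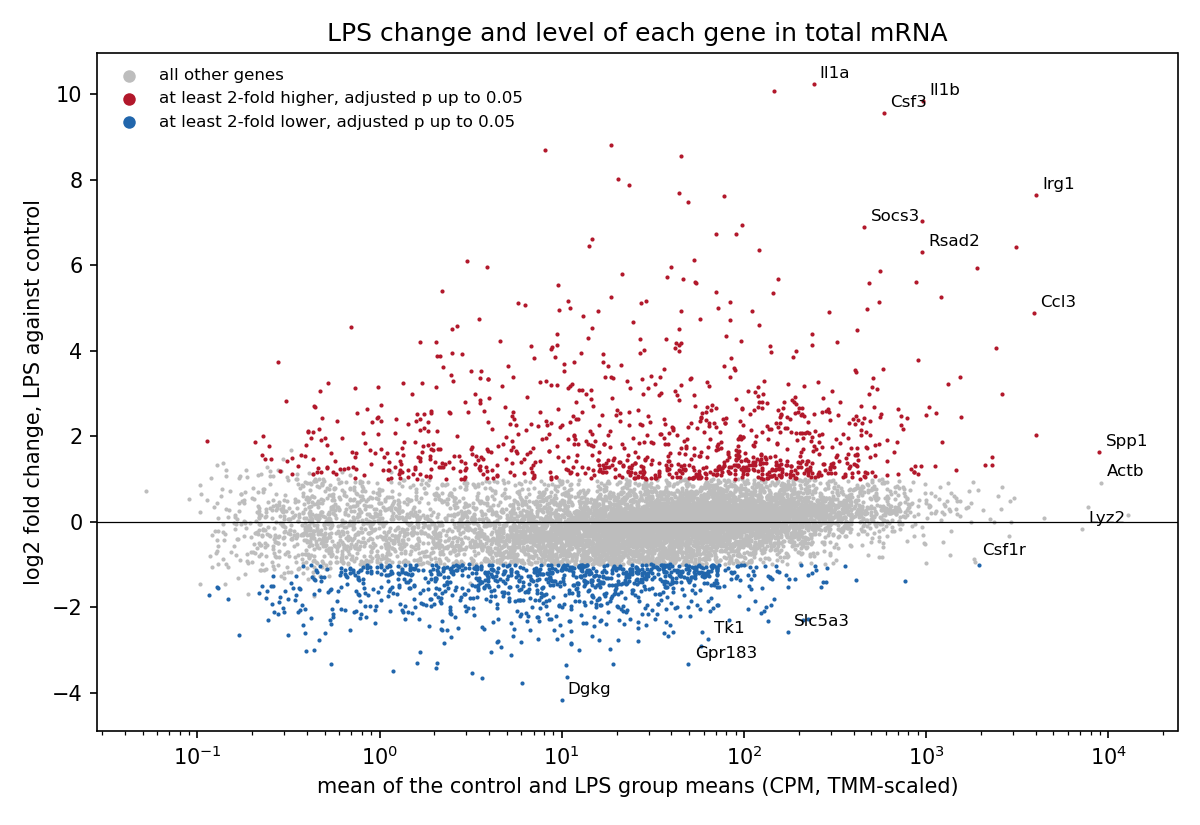
Log2 fold change of each of the 11243 genes against its mean level, with 995 genes higher and 995 lower by the strong rule. Il1a had the largest log2 fold change among the labelled genes (10.25) and Dgkg the smallest (−4.17).

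The 12 steepest rises by log2 fold change, among genes with a mean of at least 1 CPM, include cytokine genes, a protease inhibitor, an adhesion protein, a collagen and enzymes. Il1a, which encodes interleukin 1 alpha, was at 0.0911, 0.567 and 0.439 CPM in control and 717, 306 and 422 CPM with LPS (log2 fold change 10.25, SE 0.52, adjusted p 1.3e-06 by edgeR's quasi-likelihood test with Benjamini-Hochberg adjustment). Its pair Il1b went from 0.547, 3.38 and 2.17 CPM to 2933, 1155 and 1680 CPM (log2 fold change 9.84). For the neutrophil growth factor Csf3 the values were 0.456, 1.41 and 2.9 CPM in control against 669, 1787 and 1068 CPM with LPS. The groups did not overlap for any of the 3 genes, and experiment 1 had the highest Il1a and Il1b but the lowest Csf3 after LPS. The pooled counts of Il1a give a ratio of 1213 (95% counting interval 900 to 1676), which covers counting error only.

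Serpinb2, an inhibitor of plasminogen activators, was at 0.152, 0.431 and 0.0878 CPM and then at 575, 191 and 114 CPM (log2 fold change 10.07). The LPS values of Serpinb2 differed between experiments more than those of Lif, a cytokine of the interleukin 6 family, which went from 0.425, 0.931 and 0.995 CPM to 101.2, 153 and 212 CPM. Edn1, the precursor of the vasoconstrictor endothelin 1, went from 0.0607, 0.409 and 0.234 CPM to 70.8, 141 and 59.7 CPM. None of these groups overlapped. Fold changes of genes with 1 to 3 counts in control libraries depend on the prior count of the fit. For Flrt3, an adhesion protein of the FLRT family, pooled counts of 3365 with LPS and 8 in control give a ratio of 498 (counting interval 253 to 1155). For the collagen gene Col5a3, 1482 and 4 counts give 439 (171 to 1613).

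Enzymes were also among the 12 steepest rises. Irg1, whose product makes itaconate from cis-aconitate, was at 18.7, 81.8 and 34 CPM in control and at 8010, 7949 and 8038 CPM with LPS (log2 fold change 7.64, SE 0.47). Its LPS values lay within a narrow range while control replicate 2 was the highest control, so the size of the rise differed by experiment. Lipg, an endothelial-type lipase, rose with a log2 fold change of 8.03. Mmp14, a membrane-bound collagenase, went from 0.121, 0.25 and 0.176 CPM to 58.5, 35.9 and 45 CPM, with no overlap. Ccl7, a monocyte chemoattractant, rose by 7.70.

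Sequence from the RefSeq promoters of GRCm38.p6, 250 bases upstream of the start, was searched on both strands for 4 short motifs. Of the 12 steepest rises, Csf3, Lipg and Ccl7 were not searched. Among the others, Il1a, Serpinb2 and Lif have the AP-1 letters TGANTCA and Edn1 has the interferon response letters GAAANNGAAA, where N is any base. The AP-1 letters occur in 6.87% of all 27025 promoters and the interferon response letters in 3.04%. Binding was not tested. Capitals mark the motif, and positions are chr2:129309973-129310222 (minus strand) for Il1a, chr1:107511173-107511422 for Serpinb2, chr13:42301226-42301475 for Edn1 and chr11:4257318-4257567 for Lif.

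Il1a: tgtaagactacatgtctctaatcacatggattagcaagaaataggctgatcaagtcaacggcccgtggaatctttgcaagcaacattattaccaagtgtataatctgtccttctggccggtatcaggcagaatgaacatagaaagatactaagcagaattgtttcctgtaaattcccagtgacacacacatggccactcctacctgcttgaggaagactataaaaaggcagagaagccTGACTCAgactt

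Serpinb2: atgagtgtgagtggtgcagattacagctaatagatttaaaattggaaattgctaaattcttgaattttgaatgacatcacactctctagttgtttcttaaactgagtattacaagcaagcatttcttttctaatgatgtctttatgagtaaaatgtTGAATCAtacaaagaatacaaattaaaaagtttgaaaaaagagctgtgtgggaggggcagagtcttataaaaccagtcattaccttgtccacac

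Edn1: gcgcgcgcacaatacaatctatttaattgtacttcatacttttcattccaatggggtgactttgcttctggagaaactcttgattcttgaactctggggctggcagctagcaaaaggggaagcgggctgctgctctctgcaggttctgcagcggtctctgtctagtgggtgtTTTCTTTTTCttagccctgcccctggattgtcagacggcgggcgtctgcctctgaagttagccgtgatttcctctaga

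Lif: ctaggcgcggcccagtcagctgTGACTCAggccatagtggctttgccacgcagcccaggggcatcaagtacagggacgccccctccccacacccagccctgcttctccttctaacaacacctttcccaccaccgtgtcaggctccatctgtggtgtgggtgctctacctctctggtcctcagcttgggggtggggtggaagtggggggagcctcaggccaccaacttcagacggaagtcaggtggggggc

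By gain in CPM, the 6 genes that led were Spp1, Irg1, Ccl3, Ptgs2, Actb and Rnf213. Spp1, the secreted phosphoprotein osteopontin, went from 3598, 4551 and 4971 CPM to 11620, 15034 and 13754 CPM. Ptgs2, the inducible prostaglandin synthase COX-2, went from 73.1, 43.4 and 104 CPM to 7310, 5653 and 5411 CPM (log2 fold change 6.43). Rnf213, a large ubiquitin ligase raised by interferon, went from 1135, 2230 and 1530 CPM to 6539, 5626 and 6903 CPM. No group overlapped in any of these genes. Spp1 alone held 1.02% to 1.37% of all counts after LPS.

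Actb, the cytoskeletal actin often used to scale other assays, rose from 6310, 6271 and 6223 CPM to 10799, 12895 and 11928 CPM (log2 fold change 0.92, and 0.55 with library totals). B2m, the light chain of MHC class I, rose by 0.93 (0.56 with library totals). Ppia, the isomerase cyclophilin A, did not pass (0.02), with 370, 408 and 377 CPM in control and 394, 407 and 370 CPM with LPS. Its groups overlap, and with library totals its value was −0.35 and it passed as a fall.

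Chemokines showed the largest list median. Of 26 listed, 13 were analysed, and of these 11 rose, 1 fell and 1 did not pass, with a median of 4.95 above that of all genes (5.34, 4.77 and 5.03 in the 3 experiments). Ccl3, a ligand of CCR1, went from 259, 338 and 186 CPM to 7339, 8520 and 6853 CPM. Cxcl2, a neutrophil chemoattractant, was at 15.8, 18.6 and 9.19 CPM and then at 1614, 2423 and 1608 CPM. Ccl9, already abundant at 678, 584 and 453 CPM, reached 6655, 3990 and 3378 CPM. All of these groups were separate. Ccl5, which draws T cells and monocytes, rose from below 1 CPM to 104, 109 and 81.4 CPM. The chemokine that fell was Cxcl14, with 15.9, 2.54 and 7.87 CPM in control and 9.17, 1.02 and 5.56 CPM with LPS. Its groups overlap, its level differs between experiments more than between treatments, and without the replicate block it does not pass (FDR 0.455). Summed over the list, chemokines went from 1208, 1201 and 900 CPM to 20413, 20506 and 16312 CPM.

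Of 36 inflammatory cytokines listed, 23 were analysed, as the table leaves out genes with 0 counts in any library. Of these 19 rose and none fell, with a median of 2.84 above all genes (3.29, 2.43 and 2.73 by experiment). Tnf was at 269, 321 and 181 CPM before and 1917, 2707 and 2529 CPM after LPS (log2 fold change 3.23, SE 0.18). Il1rn, the receptor antagonist that blocks interleukin 1, went from 45, 83.5 and 55.7 CPM to 4572, 3985 and 2626 CPM. No overlap was seen for either gene. By share of counts, Il1rn was below Tnf in every control library and above it in every LPS library. The summed list went from 611, 665 and 517 CPM to 11643, 11190 and 9269 CPM.

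Interferon-stimulated genes rose in 66 of 67 members, 63 of them by the strong rule, with a median of 2.13 above all genes. By experiment the median was 2.72, 1.57 and 2.21, smallest in experiment 2. Rsad2, the antiviral enzyme viperin, was at 8.72, 50.6 and 25.2 CPM in control and 1463, 2701 and 1426 CPM with LPS. Ifit1, which binds viral RNA ends, went from 8.29, 46.6 and 18.5 CPM to 846, 1071 and 938 CPM. Oasl1, a regulator of IRF7 translation, went from 82.1, 209 and 100.6 CPM to 1680, 1754 and 1576 CPM. Control replicate 2 was the highest control for each of these genes, and the groups remain apart. The summed list was 4607, 9164 and 5624 CPM in control and 30110, 33531 and 27149 CPM with LPS. Irf7, the transcription factor that amplifies interferon production, rose by 2.72 and Ifit3 by 5.36.

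Of 20 interferon-induced GTPases of the GBP and IRG families listed, 10 were analysed, and these rose by the strong rule, with a median of 4.15 above all genes (5.01, 3.45 and 4.03 by experiment). Gbp5, which aids inflammasome assembly, was at 0.638, 2.63 and 1.38 CPM and then at 108, 123.8 and 80.6 CPM. Gbp2, which acts on the vacuoles of intracellular microbes, went from 0.699, 4.13 and 1.9 CPM to 122, 124.6 and 71.2 CPM. Irgm1, a regulator of that defence, went from 99.1, 246 and 134 CPM to 822, 726 and 648 CPM. The control libraries again had replicate 2 on top, and no group overlapped. Members of these families resemble each other, so reads may be shared between them.

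**Figure D3:**
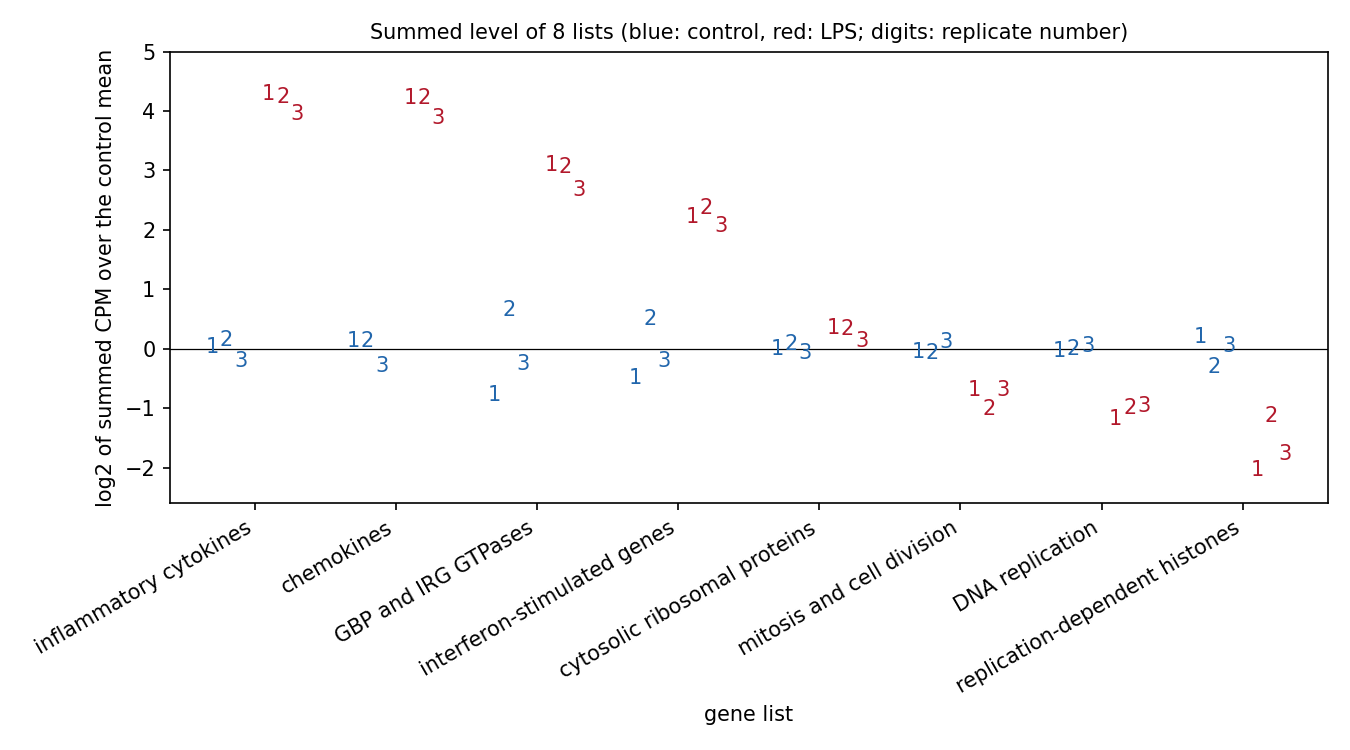
Summed CPM of 8 lists in each library, as log2 of the value over the control mean. Chemokines rose with a ratio of group means of 17.3 and replication-dependent histones fell to 0.332, and control replicate 2 was highest for the interferon-stimulated genes (9164 CPM against 4607 and 5624).

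Cytosolic DNA sensors and inflammasome genes rose in 17 of 21 members and fell in 3, with a median of 1.31 above all genes. Pyhin1, of the interferon-inducible PYHIN family, went from 0.607, 2.47 and 1.14 CPM to 72.3, 103 and 58.7 CPM. Nlrp3, the sensor of the NLRP3 inflammasome, went from 144, 149 and 124.8 CPM to 866, 828 and 1008 CPM. In neither gene did the groups overlap. Nek7, the kinase that NLRP3 needs for assembly, fell with a log2 fold change of −0.85, from 128.9, 145 and 118.6 CPM to 81.1, 74.5 and 62.6 CPM. Ifi204 rose by 4.39.

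The MHC class I list, with its loading factors and immunoproteasome, rose in 20 of 21 members and none fell, with a median of 1.03 above all genes. Nlrc5, the transactivator of class I genes, went from 32.5, 69.5 and 38.7 CPM to 270, 306 and 266 CPM. Tap1, a subunit of the peptide transporter of the endoplasmic reticulum, went from 34.4, 65.3 and 43.7 CPM to 203, 369 and 249 CPM. The groups stayed apart. H2-D1, a class I heavy chain, rose by 1.05. Of 10 MHC class II genes listed, 5 were analysed, and H2-Aa, H2-Eb1, Ciita, H2-Oa and H2-Ob were not. Of those analysed, 1 rose, 1 fell and 3 did not pass. Their median was −0.25 relative to all genes (0.54, −0.10 and −0.33 by experiment). A difference between the classes was not tested. Cd74, the class II invariant chain, rose by 0.53, and H2-DMa, which edits class II peptides, fell (−0.33) with overlapping groups, and its call is lost with all 18 libraries or without replicate 1 or 3.

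NF-kB subunits and regulators rose in 22 of 27 members and fell in 1, with a median of 1.04 above all genes (17 up and 7 down with library totals). Nfkbiz, an atypical inhibitor that directs NF-kB to late targets, went from 20.1, 18.2 and 17.9 CPM to 689, 581 and 439 CPM. Tnfaip3, the deubiquitinase A20 that limits NF-kB, was at 23.6, 29.1 and 17.6 CPM and then at 520, 246 and 285 CPM. Nfkbia, the inhibitor that NF-kB itself induces, went from 110.6, 97.2 and 87.4 CPM to 522, 589 and 564 CPM. The 3 genes show no overlap between groups. The subunit gene Nfkb1 rose by 2.45 and the coregulator Bcl3 by 3.07.

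Socs3, which blocks signalling from the interleukin 6 receptor family, went from 7.47, 8.4 and 7.02 CPM to 995, 888 and 838 CPM (log2 fold change 6.89, SE 0.13, adjusted p 2.95e-08 by edgeR with Benjamini-Hochberg adjustment). The JAK, STAT, IRF and SOCS list around it rose in 20 of 29 members and fell in 5, with a median of 0.61 above all genes (15 up and 10 down with library totals). Among the falls were the interferon receptor chains Ifngr1 (−0.70) and Ifnar2 (−0.51), and Irf3 (−0.31), which carries the TRIF signal. MAP kinase phosphatases rose in 7 of 8 members with a median of 2.42 above all genes. Dusp5, a nuclear phosphatase of ERK, went from 12.3, 10 and 7.34 CPM to 156, 198 and 194 CPM, without overlap.

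Receptors and adaptors of the Toll-like family rose in 17 of 30 members (56.7%, against 35.3% of all genes) and fell in 9 (30%, against 37.8%). Their median was 0.60 above all genes (16 up and 13 down with library totals). Cd14, the coreceptor of LPS, rose from 1246, 1166 and 1139 CPM to 3047, 3886 and 3253 CPM. Tlr3, the endosomal sensor of double-stranded RNA, rose by 2.73 and Irak3, an inhibitor of the pathway, by 2.22. The TRIF gene Ticam1 rose by 1.73, whereas its bridging adaptor Ticam2 fell, with 5.86, 6.31 and 6.15 CPM before and 3.27, 2.46 and 2.44 CPM after. Groups were apart for Cd14 and Ticam2. Tlr13, a sensor of bacterial ribosomal RNA, fell (−0.60).

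AP-1, EGR, MAF and MYC factors rose in 16 of 20 members and fell in 2, with a median of 1.19 above all genes that was smallest in experiment 1 (0.54, against 1.69 and 1.53). The immediate early gene Ier3, a stress regulator, went from 35.1, 21.4 and 18.6 CPM to 319, 609 and 408 CPM. Myc, the growth factor-responsive transcription factor, rose from 2.86, 3.2 and 3.51 CPM to 23.4, 35.1 and 43.8 CPM. Separate groups were seen for Ier3 and Myc. Fos, an AP-1 subunit, was lower at 6 h, with 187, 133 and 122 CPM in control against 82, 72.9 and 86.3 CPM. Klf10, a zinc finger factor of the TGF-beta response, fell from 92.2, 88.5 and 79 CPM to 26.6, 28.1 and 31.6 CPM. Their groups were apart too.

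Factors that degrade inflammatory mRNA rose in 13 of 23 members and fell in 5, with a median of 0.38 above all genes and an own median below 0 under library totals (−0.01, with 11 up and 10 down). The endonuclease Zc3h12a, known as regnase-1, rose by 3.28. Zfp36, which binds AU-rich elements of cytokine mRNA, went from 102, 60.4 and 39.7 CPM to 533, 546 and 352 CPM. LPS values of Zfp36 exceeded all of its control values. Its relative Zfp36l2 moved the other way (−0.80).

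Enzymes of nitric oxide, itaconate, oxidase and eicosanoid synthesis rose in 16 of 27 members (59.3%, against 35.3% of all genes) and fell in 9 (33.3%, against 37.8%). Their median was 0.38 above all genes, with an own median below 0 under library totals (−0.01, with 13 up and 11 down). The list sum went from 3678, 4039 and 3715 CPM to 22148, 20245 and 19426 CPM. Hdc, which makes histamine, went from 0.79, 2.18 and 1.08 CPM to 166, 142 and 110 CPM, with no overlap. Ptgs1, the constitutive prostaglandin synthase, fell while Ptgs2 rose, with 35.4, 10.4 and 18 CPM in control and 11.2, 3.18 and 6.67 CPM with LPS. Its groups overlap across experiments, and within each experiment the LPS value was lower.

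Costimulatory, adhesion and checkpoint molecules rose in 15 of 20 members and fell in 4, with a median of 1.88 above all genes. Cd40, the receptor for T cell help, went from 3.46, 9.35 and 5.41 CPM to 337, 293 and 269 CPM. Cd274, the checkpoint ligand PD-L1, went from 2.16, 7.83 and 4.01 CPM to 146, 149 and 123.1 CPM. The TNF receptor gene Tnfrsf1b went from 28.5, 42.2 and 34.5 CPM to 2093, 1440 and 1626 CPM. No group overlapped. Havcr2, the checkpoint receptor TIM-3, fell (−1.31) and Cd276, of the B7 family (−1.10). Cd44, the hyaluronan receptor, rose by 1.86 from near equal controls of 527, 529 and 529 CPM.

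Phagocytic, Fc, complement and lectin receptors rose in 23 of 33 members and fell in 6, with a median of 1.53 above all genes. Lilrb4, an inhibitory receptor of myeloid cells, rose from 263, 416 and 234 CPM to 1928, 1667 and 1457 CPM. Axl, a receptor for apoptotic cells, rose from 1.12, 1.38 and 1.14 CPM to 28.8, 34.2 and 20.9 CPM. LPS libraries were above control libraries for Lilrb4 and Axl alike. The TREM family divided: Trem1, which amplifies inflammatory signals, rose by 5.06, while Trem2, a lipid-sensing receptor, fell from 258, 240 and 260 CPM to 70.3, 123.5 and 114 CPM. Trem2 groups did not overlap either. Fcgr1, the high-affinity IgG receptor, rose by 2.53 and Pilra, an inhibitory receptor, by 5.54.

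Integrins rose in 9 of 19 members (47.4%, against 35.3% of all genes) and fell in 5 (26.3%, against 37.8%). Their median was 0.32 above all genes, with an own median below 0 under library totals (−0.07, with 7 up and 7 down). The alpha chains of the leukocyte integrins rose together, Itgam by 2.15, Itgal by 2.31 and Itgax by 2.42. The alpha 4 chain Itga4 was the largest loss in mean CPM among genes with an FDR of at most 0.05 and the same sign in the 3 experiments, from 2639, 2524 and 2671 CPM to 1266, 1257 and 1387 CPM. Itgb5, part of a vitronectin receptor, went from 60.6, 25.7 and 65 CPM to 15.4, 10.9 and 17.8 CPM. LPS values of Itga4 and Itgb5 lay below all of their control values. The laminin-binding chain Itga6 fell (−1.39).

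Chemoattractant, purinergic and lipid receptors had 12 of 25 members up (48%, against 35.3% of all genes) and 12 down (48%, against 37.8%). Their median relative to all genes was −0.15 in the fit and 0.39, 0.32 and 0.03 in the 3 experiments, so it has no settled sign. Ccr1, a receptor of CCL3 and CCL5, rose from 0.79, 2.2 and 0.995 CPM to 108, 63.7 and 51.3 CPM. Hcar2, the niacin receptor, rose from 5.8, 12.3 and 4.04 CPM to 263, 210 and 170 CPM. Gpr183, the receptor of 7-alpha,25-dihydroxycholesterol, fell from 95.4, 92.3 and 82.4 CPM to 6.75, 10.9 and 9.63 CPM. Groups were separate in all 3. S1pr1, the receptor of sphingosine 1-phosphate, fell (−3.04). Cx3cr1, the fractalkine receptor, fell from 516, 449 and 468 CPM to 185, 208 and 318 CPM.

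**Figure D4:**
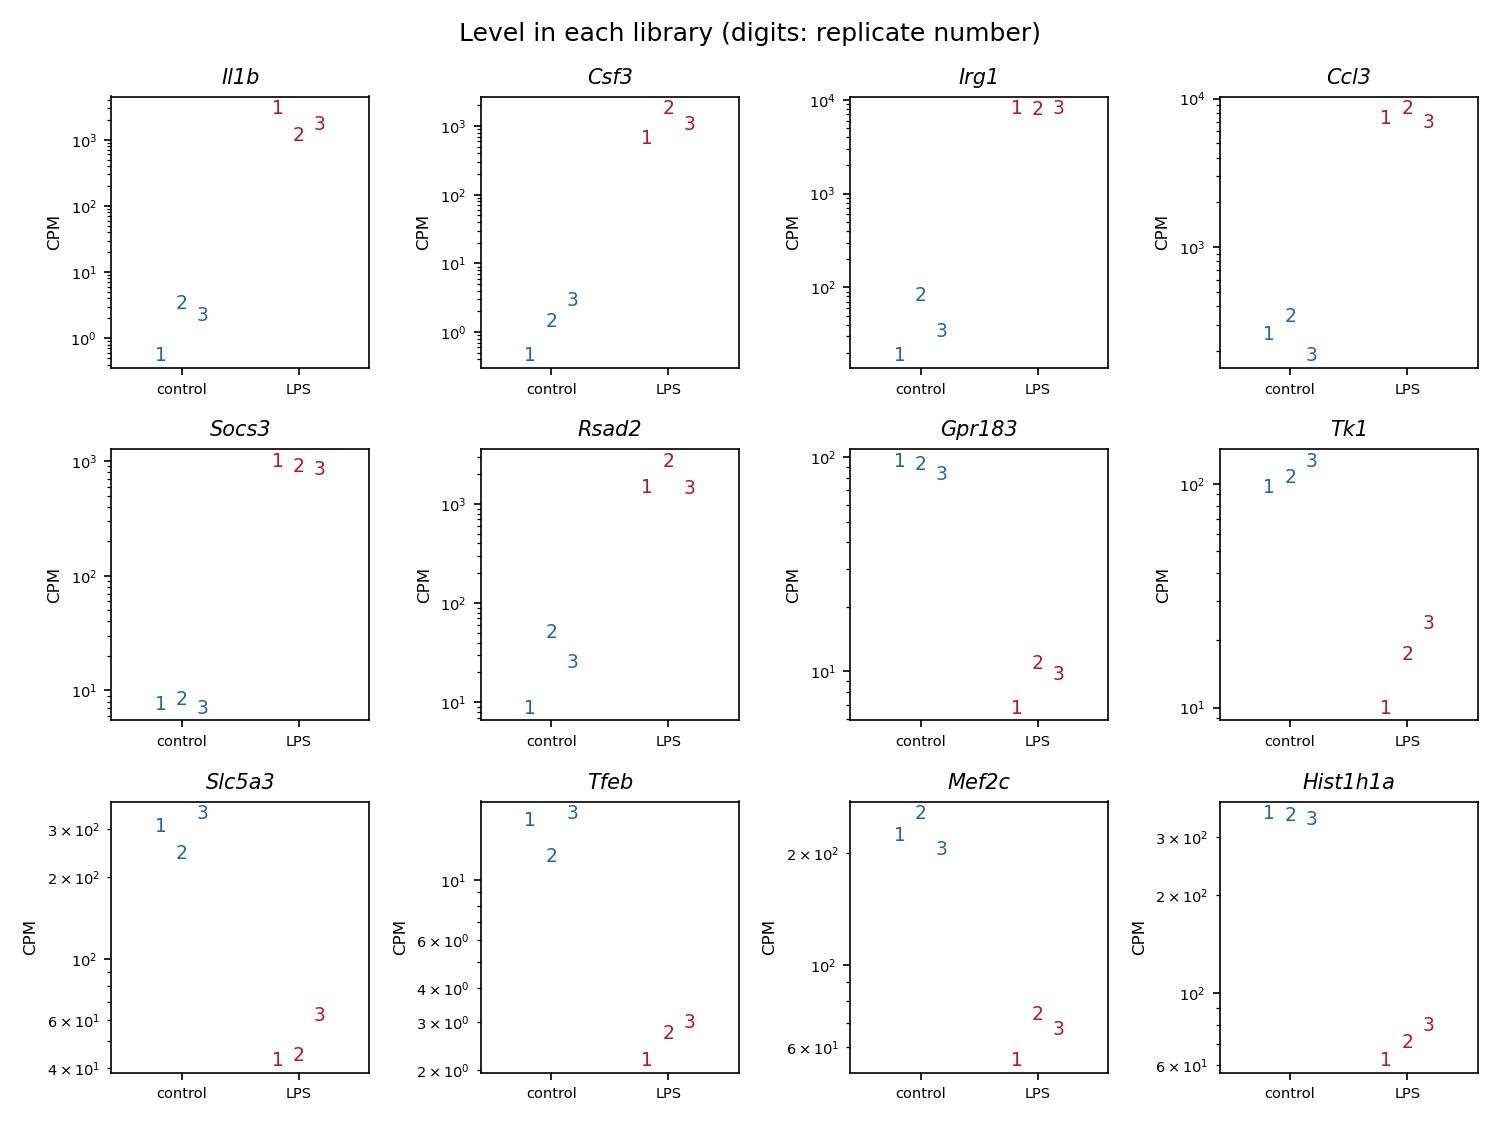
Level of 12 genes in each library, with digits for the replicate number. Irg1 was at 8010, 7949 and 8038 CPM with LPS, and Gpr183 at 6.75, 10.9 and 9.63 CPM.

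DNA replication genes fell in 56 of 63 members and rose in 4, with a median of −0.96 relative to all genes (−1.19, −0.96 and −0.95 by experiment). E2f2, an activator of replication genes, went from 26.9, 24.6 and 32.3 CPM to 3.16, 4.98 and 4.32 CPM. Ccne2, the cyclin that starts S phase, went from 64.3, 57.7 and 66 CPM to 8.99, 10.1 and 12.3 CPM. Mcm6, a subunit of the replicative helicase, was at 354, 417 and 402 CPM and then at 111.4, 147 and 155 CPM. All of these LPS values were below all control values. E2f8, a repressor of the E2F family, fell (−2.57) and the maintenance methyltransferase Dnmt1 (−1.42). The list sum fell to 0.485 of control, from 5735, 5910 and 6099 CPM to 2618, 2956 and 3031 CPM.

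Replication-dependent histones fell in 55 of 56 members, 47 by the strong rule, with a median of −1.46 relative to all genes (−2.02, −0.85 and −1.65 by experiment). Hist1h1a, a linker histone, went from 354, 351 and 341 CPM to 62.1, 70.3 and 79.3 CPM. Another linker histone, Hist1h1e, went from 233, 187 and 223 CPM to 68, 144 and 84.4 CPM. No overlap appeared, and LPS replicate 2 kept the highest Hist1h1e of the LPS libraries. The summed list shows the same order, with 2378, 1685 and 2153 CPM in control and 506, 949 and 607 CPM with LPS. Histone copies are near identical in sequence, so single-member values are less certain than the sum.

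Mitosis and cell division genes fell in 78 of 82 members and rose in 2, with a median of −0.86 relative to all genes (−0.79, −0.99 and −0.78 by experiment). Fbxo5, an inhibitor of the anaphase-promoting complex, went from 56.6, 52.6 and 52.2 CPM to 10.5, 9.87 and 13 CPM. Mybl2, a factor for mitotic genes, was at 76.8, 66.2 and 92.1 CPM and then at 12, 22.1 and 26.6 CPM. Mki67, the proliferation marker, fell from 1214, 1091 and 1670 CPM to 693, 507 and 829 CPM. Groups did not meet in any of these genes. Top2a, the topoisomerase of dividing cells, fell (−0.82).

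Nucleotide synthesis fell in 22 of 29 members and rose in 4, with a median of −0.51 relative to all genes. Tk1, the thymidine kinase of S phase, went from 96.4, 106.8 and 126 CPM to 9.95, 17.3 and 23.9 CPM. Rrm2, a subunit of ribonucleotide reductase, went from 136.4, 134.5 and 157 CPM to 29.7, 46 and 56.7 CPM. Outside that list, Ung, the uracil glycosylase of replication repair and among the 12 steepest falls, went from 20.9, 18.5 and 18.2 CPM to 0.533, 2.22 and 3.3 CPM. The groups stayed apart, with LPS replicate 1 lowest in each gene. Samhd1, which hydrolyses deoxynucleotides, rose by 1.73, from 154, 237 and 194 CPM to 673, 727 and 528 CPM.

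G1 cyclins, CDK inhibitors and growth arrest genes had 9 of 21 members up (42.9%, against 35.3% of all genes) and 10 down (47.6%, against 37.8%), with a median of −0.13 relative to all genes (−0.07, 0.37 and 0.00 by experiment). Cdkn1a, the inhibitor p21, rose from 57.2, 76.1 and 83.5 CPM to 170, 228 and 224 CPM. Gadd45b, a stress gene, rose by 3.13 and Gadd45a by 3.17. In the other direction went Rbl2, the pocket protein p130, from 31.8, 38.2 and 33.9 CPM to 7.43, 10.4 and 8.68 CPM. Cdkn1a and Rbl2 showed no overlap. Cdkn2c, the inhibitor p18, fell (−1.73).

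Genes of cell death and survival rose in 19 of 27 members and fell in 5, with a median of 0.46 above all genes (13 up and 9 down with library totals). Fas, a death receptor, rose from 3.89, 4.04 and 4.39 CPM to 121, 88.4 and 121 CPM. Cflar, which blocks caspase 8 at that receptor, rose from 143, 177 and 99.4 CPM to 818, 657 and 553 CPM. Bmf, which activates apoptosis by binding BCL2 proteins, fell from 10.8, 8.62 and 14.5 CPM to 0.533, 0.9 and 0.957 CPM (log2 fold change −3.78). Groups were apart in all 3. Mcl1, a survival gene, rose by 0.82 while Bcl2 fell (−1.01) and the death gene Pmaip1 (−1.12).

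Dgkg, a diacylglycerol kinase, was the steepest fall among genes with a mean of at least 1 CPM, from 20.1, 17 and 19.5 CPM to 1.17, 0.57 and 1.48 CPM (log2 fold change −4.17, SE 0.21). Angptl4, an inhibitor of lipoprotein lipase, went from 6.53, 6.29 and 7.37 CPM to 0.533, 0.36 and 0.71 CPM. The deacetylase gene Hdac9 went from 37.4, 41.1 and 25.9 CPM to 3.48, 3.42 and 3.3 CPM. None of the 3 had overlapping groups. Cytip, which controls leukocyte adhesion, fell (−3.63), and Nanos1, an RNA-binding protein (−3.43). Csf1r, the receptor of the macrophage growth factor CSF1, had the next largest loss in CPM after Itga4, from 2563, 2376 and 2389 CPM to 1121, 1360 and 1370 CPM, with no overlap.

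Lineage factors of macrophages had 9 of 23 members up (39.1%) and 8 down (34.8%), near the 35.3% and 37.8% of all genes, with a median of 0.02 above all genes and an own median below 0 under library totals (−0.37, with 6 up and 13 down). Mef2c, a factor of myeloid differentiation, fell from 223, 255 and 204 CPM to 55.3, 73.6 and 67 CPM. Cebpa fell from 26.2, 25.3 and 28.3 CPM to 7.89, 7.86 and 9.29 CPM, while its relative Cebpb, a factor of the acute phase response, rose from 7.65, 5.9 and 5.33 CPM to 23.9, 33.3 and 15 CPM. There was no overlap in these genes. Ets2 rose by 2.06 and Tfec, of the MiT family, also by 2.06.

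Glycolysis and hypoxia genes rose in 21 of 32 members and fell in 6, with a median of 0.31 above all genes and an own median below 0 under library totals (−0.08, with 12 up and 13 down). Glucose uptake and control steps are among the rising members. Slc2a1, the glucose transporter GLUT1, went from 103, 83.3 and 98.6 CPM to 352, 382 and 396 CPM, and hexokinase gene Hk2 from 139, 134.9 and 123.8 CPM to 288, 327 and 326 CPM. Pfkfb3, which makes the activator of phosphofructokinase, went from 18.3, 20.4 and 21.3 CPM to 174, 71.7 and 81.1 CPM. LPS exceeded control in every library for these. Pdk1, a kinase that inhibits pyruvate dehydrogenase, fell (−0.96). Pkm, the abundant pyruvate kinase, did not pass (0.08), with overlapping groups.

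The pentose phosphate pathway rose in 1 of 8 members and fell in 5, with a median of −0.16 relative to all genes. Taldo1, transaldolase, went from 250, 252 and 319 CPM to 172, 203 and 215 CPM, without overlap. The tricarboxylic acid cycle and pyruvate entry had small changes, with 4 of 31 members up (12.9%, against 35.3% of all genes) and 11 down (35.5%, against 37.8%). The other 16 did not pass, and the median was −0.03 relative to all genes (1 up and 29 down with library totals). Idh1, the cytosolic isocitrate dehydrogenase, fell (−0.56), Idh2, its mitochondrial form (−0.35), and citrate synthase Cs did not pass (−0.04). Respiratory chain and ATP synthase genes did not pass in 56 of 73 members, with 9 up and 8 down and a median of 0.07 above all genes and an own median below 0 under library totals (−0.33, with 0 up and 70 down).

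Cholesterol and fatty acid synthesis had 10 of 39 members up (25.6%, against 35.3% of all genes) and 15 down (38.5%, against 37.8%), with a median of −0.03 relative to all genes and 4 up and 31 down with library totals. Scd2, a desaturase, fell from 1409, 1131 and 798 CPM to 473, 412 and 365 CPM, and Elovl6, a fatty acid elongase, from 86.5, 77.1 and 63.8 CPM to 31.2, 33.9 and 29.8 CPM. Neither of the falling genes had overlapping groups. Scavenger receptors, LXR targets and lipid handling had 12 of 27 members up (44.4%, against 35.3% of all genes) and 11 down (40.7%, near 37.8%). Their median was 0.18 above all genes, with an own median below 0 under library totals (−0.22, with 9 up and 14 down). Abca1, the cholesterol exporter, rose from 70.4, 47.6 and 49.5 CPM to 585, 174 and 322 CPM, and Msr1, a scavenger receptor, from 653, 653 and 613 CPM to 1880, 1453 and 1427 CPM. Rxra, a partner of LXR, fell (−1.18) and Pparg, a lipid-sensing nuclear receptor (−0.96).

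ATF4 targets and genes of serine and amino acid supply rose in 17 of 26 members and fell in 2, with a median of 0.60 above all genes (13 up and 10 down with library totals). Slc7a11, the cystine importer, went from 83.5, 78.5 and 93.3 CPM to 1447, 618 and 754 CPM. Chac1, which degrades glutathione, went from 4.71, 1.86 and 0.644 CPM to 29.3, 21.8 and 6.82 CPM. LPS replicate 1 was highest for Slc7a11 and Chac1, with no overlap. Shmt1, a serine and glycine enzyme, fell (−0.70). Cytosolic tRNA synthetases rose in 17 of 20 members and fell in 1, with a median of 0.36 above all genes and an own median below 0 under library totals (−0.03, with 3 up and 6 down), led by Nars, the asparagine enzyme (0.79).

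Antioxidant genes and NRF2 targets rose in 12 of 24 members (50%, against 35.3% of all genes) and fell in 8 (33.3%, against 37.8%), with a median of 0.16 above all genes and an own median below 0 under library totals (−0.23, with 6 up and 13 down). Sod2, the mitochondrial superoxide dismutase, went from 126, 152 and 131.4 CPM to 815, 675 and 650 CPM. Gclc, the rate-limiting enzyme of glutathione synthesis, fell from 160, 138 and 179 CPM to 79.2, 53.6 and 69.3 CPM. Groups were distinct for Sod2 and Gclc. Gpx1, a glutathione peroxidase, fell (−0.85). Iron handling genes rose in 9 of 14 members and fell in 2, with a median of 0.44 above all genes (6 up and 6 down with library totals). Slc11a2, the iron importer DMT1, rose from 55.6, 58.8 and 52.6 CPM to 243, 211 and 192 CPM. Fth1, the ferritin heavy chain, rose by 0.92 and Steap3, an endosomal iron reductase, fell (−1.76).

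Solute carriers had 72 of 183 members up (39.3%) and 72 down (39.3%), near the 35.3% and 37.8% of all genes, with a median of −0.04 relative to all genes and 40 up and 114 down with library totals. Slc15a3, a lysosomal transporter of bacterial peptides, rose from 16.6, 27.7 and 24.6 CPM to 326, 414 and 347 CPM. Slc5a3, the myo-inositol importer, fell from 306, 244 and 342 CPM to 42.5, 44.3 and 62 CPM. Slc43a2, a carrier of large neutral amino acids, fell from 231, 174 and 271 CPM to 32.3, 36.7 and 69.9 CPM. No groups overlapped.

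Cytosolic ribosomal protein genes moved by small, shared steps. Of 83, 72 rose and none fell, none by the strong rule, with a median of 0.30 above all genes (0.40, 0.22 and 0.25 by experiment), and with library totals none rose and 25 fell. Their sum went from 27319, 29005 and 26047 CPM to 34853, 34519 and 30135 CPM. Ribosome biogenesis and RNA polymerase I genes rose in 36 of 67 members and fell in 8, with a median of 0.20 above all genes and an own median below 0 under library totals (−0.19, with 1 up and 45 down). Mybbp1a, a nucleolar factor, rose by 0.57, and Ubtf, the factor that opens ribosomal DNA, fell from 221, 194 and 247 CPM to 111.2, 121 and 150 CPM, without overlap. Mitochondrial ribosomal proteins had 21 of 76 members up (27.6%, against 35.3% of all genes) and 29 down (38.2%, against 37.8%), with a median of −0.04 relative to all genes and 2 up and 61 down with library totals. Mrpl52 was the exception by the strong rule, from 19.8, 14.2 and 16.9 CPM to 58.2, 73.2 and 47.2 CPM.

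Genes of protein folding in the endoplasmic reticulum rose in 33 of 39 members and fell in 3, with a median of 0.40 above all genes (14 up and 11 down with library totals). Hspa5, the chaperone BiP, went from 1397, 984 and 1200 CPM to 3589, 3032 and 2358 CPM. Herpud1, of the degradation pathway there, went from 69.9, 45.2 and 44.8 CPM to 343, 231 and 217 CPM. Each LPS value of Hspa5 and Herpud1 exceeded each control value. The stress sensor Atf6 fell (−0.61). Proteasome subunits rose in 35 of 38 members and fell in 1, with a median of 0.46 above all genes (14 up and 8 down with library totals). Psma6, of the core ring, went from 144, 170 and 146 CPM to 490, 335 and 354 CPM, and the immunoproteasome subunit Psmb10 rose by 1.09.

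Lysosome pathway genes rose in 47 members (41.6%, against 35.3% of all genes), fell in 34 (30.1%, against 37.8%) and did not pass in 32, with a median of 0.08 above all genes and an own median below 0 under library totals (−0.31, with 24 up and 70 down). Ctsc, the cathepsin that activates serine proteases, went from 151, 127 and 138 CPM to 1053, 684 and 566 CPM, without overlap. V-ATPase subunits, which acidify the lysosome, rose in 15 of 19 members and fell in 1, with a median of 0.25 above all genes and an own median below 0 under library totals (−0.14, with 4 up and 10 down). Atp6v0a1, a membrane subunit, rose from 38.5, 43.4 and 46.1 CPM to 92.6, 124.2 and 121 CPM. Autophagy machinery had 19 of 42 members up (45.2%, against 35.3% of all genes) and 14 down (33.3%, against 37.8%). Its median was 0.08 above all genes, with an own median below 0 under library totals (−0.31, with 6 up and 25 down). Tfeb, a master regulator of lysosome genes, fell from 16.5, 12.2 and 17.5 CPM to 2.17, 2.73 and 2.99 CPM (log2 fold change −2.53), and the autophagy kinase Ulk1 (−0.86). For Atp6v0a1 and Tfeb the groups were separate.

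The plasminogen system, proteases and matrix genes rose in 12 of 20 members and fell in 3, with a median of 0.76 above all genes (10 up and 7 down with library totals). Mmp9, a gelatinase, went from 0.213, 0.136 and 0.615 CPM to 12.9, 29.1 and 42.1 CPM, without overlap. Adam10, a sheddase of surface proteins, fell (−0.50). Rab GTPases, which direct vesicle traffic, rose in 22 of 44 members (50%, against 35.3% of all genes) and fell in 10 (22.7%, against 37.8%). Their median was 0.22 above all genes, with an own median below 0 under library totals (−0.17, with 10 up and 22 down). Rab20 rose by 2.62 and Rab8b by 1.29, while Rab27a, which serves secretory granules, fell from 7.41, 8.99 and 6.91 CPM to 0.853, 1.23 and 1.27 CPM, again without overlap.

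RNA-binding and DNA-binding families showed small shifts. SR, hnRNP and snRNP proteins of splicing rose in 21 of 50 members (42%, against 35.3% of all genes) and fell in 6 (12%, against 37.8%). Their median was 0.10 above all genes, with an own median below 0 under library totals (−0.29, with 2 up and 38 down). Hnrnpr, of the hnRNP family, fell from 142, 130.1 and 143 CPM to 100.8, 74.5 and 94.7 CPM, while Hnrnph2 rose by 0.56. Genes of the Zfp-numbered zinc finger family fell in 146 of 279 members (52.3%, against 37.8% of all genes and 53.2% of those in the level class above the lowest) and rose in 51 (18.3%, against 35.3%), with a median of −0.26 relative to all genes (−0.25, −0.30 and −0.24 by experiment). Zfp362 fell (−2.81), from 7.32, 6.65 and 9.25 CPM to 0.675, 1.38 and 1.2 CPM, and no groups overlapped.

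**Figure D5:**
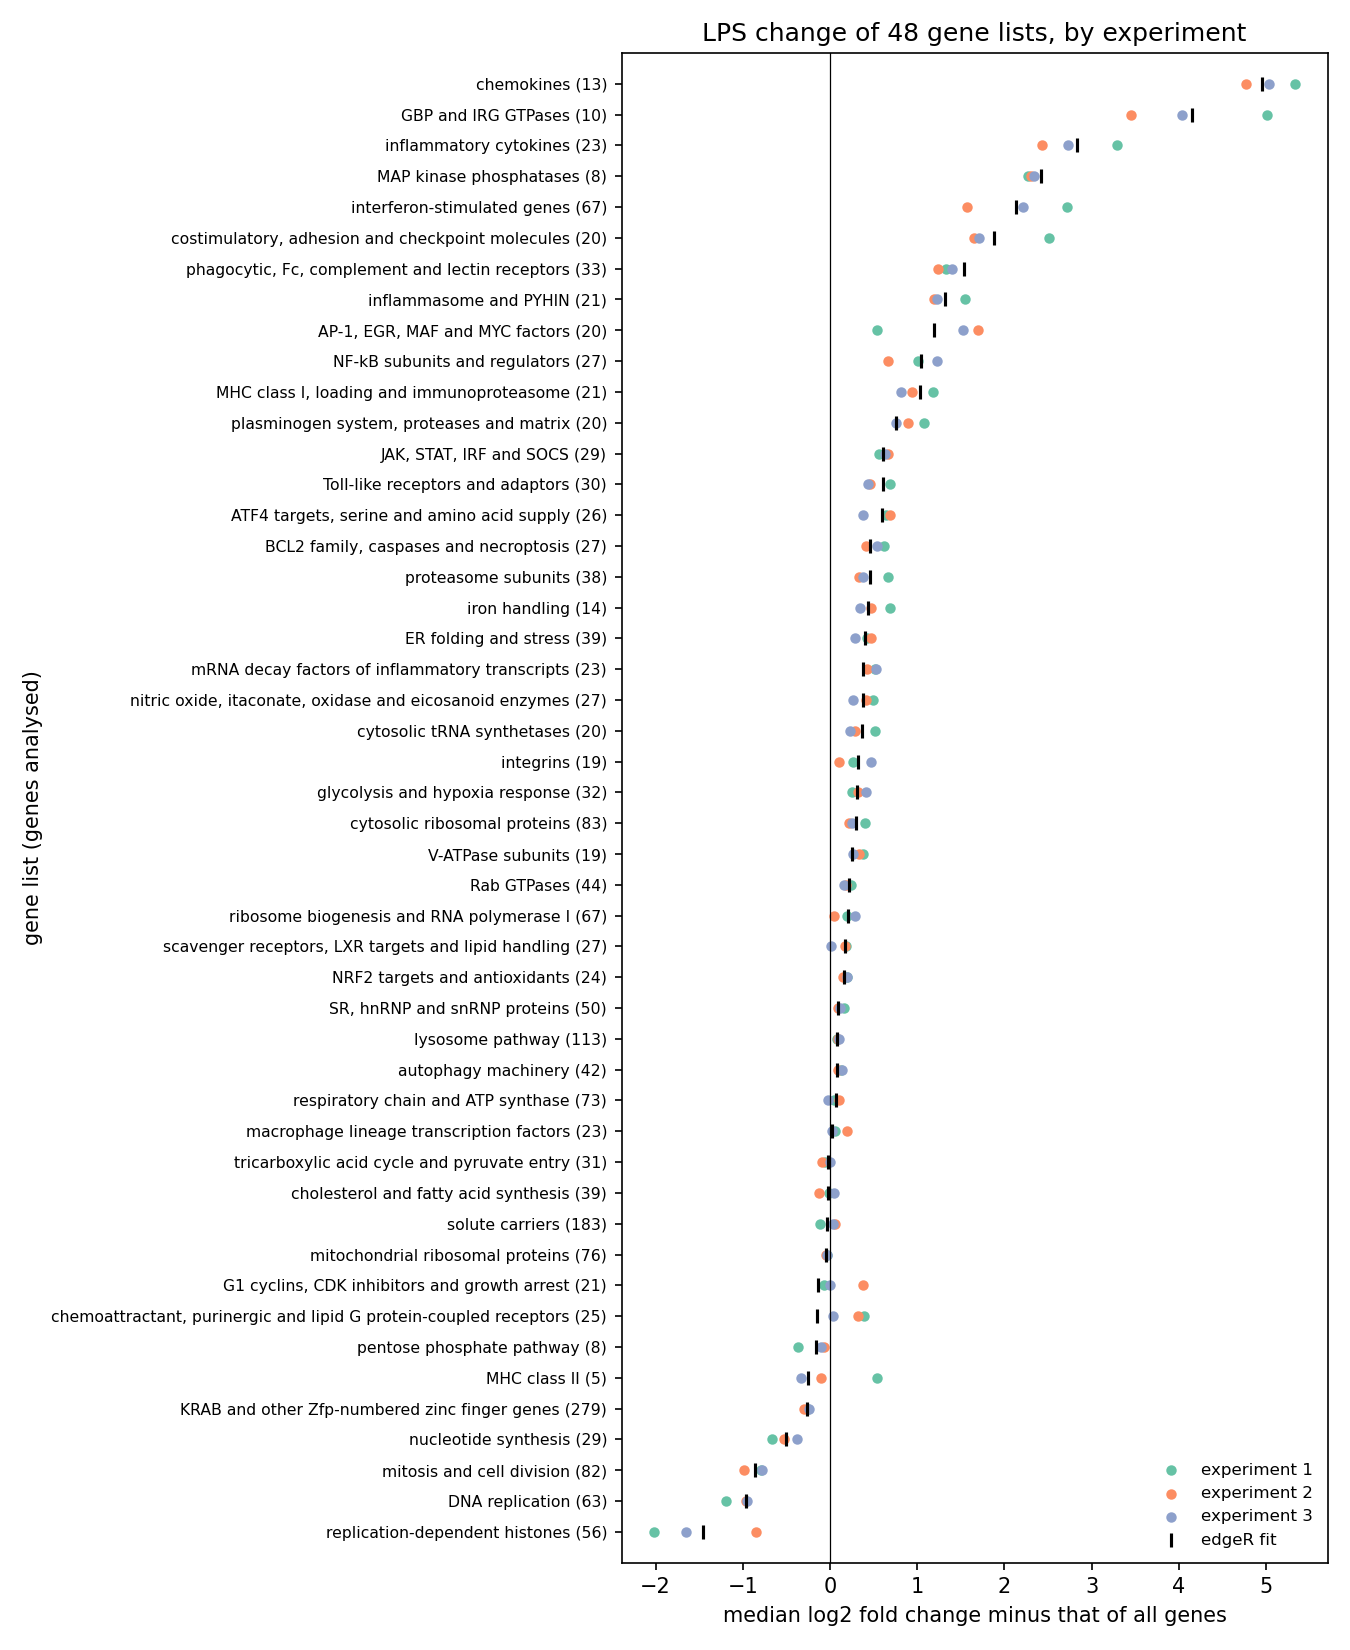
Median log2 fold change of 48 lists relative to all genes, with the value of each experiment. It runs from 4.95 for chemokines to −1.46 for replication-dependent histones, and own medians near 0 change sign with library totals, as for cytosolic ribosomal proteins (0.30, own median −0.09 with library totals).

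The lists hold 2026 genes, 18% of the table, and 41 of these are in more than a single list. They cover 337 of the strong higher genes (33.9%) and 197 of the strong lower genes (19.8%), which leaves 658 and 798 outside any list.

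Shares of promoters with the motif letters are given beside those of the 8866 analysed genes with an entry and of all promoters. The interferon response letters GAAANNGAAA were in 8.65% of 798 strong higher genes with a promoter entry, 2.29% of 743 strong lower genes, 2.77% of analysed genes and 3.04% of all promoters, and in 17 of 52 interferon-stimulated genes (32.7%). The NF-kB letters GGGNNTTTCC were in 2.88%, 0.808%, 1.41% and 1.4%, and in 6 of 23 genes of the NF-kB list (26.1%). They were in 2 of 7 chemokines (28.6%), 1 of 15 inflammatory cytokines (6.67%) and 0 of 52 interferon-stimulated genes. The E2F letters TTTNNCGC were in 5.01% of strong higher genes, 9.56% of strong lower genes, 7.61% of analysed genes and 4.39% of all promoters. By list they were in 13 of 52 DNA replication genes (25%) and 10 of 69 mitosis genes (14.5%). The AP-1 letters were in 8.77% of strong higher genes, 2.69% of strong lower genes, 4.15% of analysed genes and 6.87% of all promoters. These are counts of letters in 250 bases, and binding was not tested.

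Values of polysome-associated mRNA from the same lysates can be set side by side. The 995 strong higher genes had a median log2 fold change of 1.72 in total and 1.73 in polysome-associated mRNA, and the 995 strong lower genes −1.39 and −1.40. Some list medians, picked after their values were seen, lie further apart: replication-dependent histones −1.48 in total and −2.38 in polysome-associated mRNA, AP-1, EGR, MAF and MYC factors 1.16 and 0.69, and chemoattractant, purinergic and lipid receptors −0.17 and 0.57. In a test of the difference over all 18 libraries with edgeR, 0 of 11243 genes (0%) passed an FDR of 0.25. That test takes the lysate as a block, which pairs the RNA types. The count was also 0 without that block. Before adjustment 164 genes had p values under 0.05, and after Benjamini-Hochberg adjustment of the edgeR values the minimum was 0.591. DESeq2, fitted without the lysate block, gave 1 gene, Tmem132a, named after its value was seen.

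Overlapping genes and close relatives limit single values, because the strand setting of the counting is not spelled out in the sources used here. Il1b, Dgkg, Edn1 and Bcl2, for example, each overlap an antisense transcript. On the same strand, Serpinb2, Ticam2, Lilrb4, Itgam and Hist1h1e each overlap another annotated gene, which no strand setting would separate.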

How the data were processed

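The values are gene counts deposited by the authors, who describe TruSeq stranded total RNA libraries with ribosomal RNA removed, paired-end reads, the nextflow RNAseq pipeline at its defaults, Hisat2 alignment to GRCm38, featureCounts with Ensembl genes, and a table of protein-coding genes without those at 0 counts in any library. The lowest count is 1. Tools were R 4.3.3, edgeR 4.0.16, limma 3.58.1 and DESeq2 1.42.0.

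The fit uses the 9 total mRNA libraries (control, LPS, LPS with torin1) with TMM scaling, treatment groups and a replicate block, and edgeR's quasi-likelihood test. The number of a replicate as its experiment comes from the labels. Libraries with the same number had a mean correlation of deviations of 0.324 (9 pairs, lowest 0.149), and the numbers were used as pairs.

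Genes in print come from the 12 steepest rises and the 12 steepest falls in log2 fold change with an FDR of at most 0.05, the same sign in 3 experiments and a mean of at least 1 CPM, the 6 largest gains and the 6 largest losses in CPM, and from each list up to 3 of its steepest rising and falling members that passed with the same sign in 3 experiments, its 2 most abundant members, cell type markers and genes the paper names, and a selection of these is in print. Of Serpinb2, which has 2 promoter entries, 1 was searched. Genes and lists were chosen with earlier results of these data known. Alternatives were no replicate block, DESeq2, its size factors in edgeR, library totals, a filter at a mean of 20 counts, the 6 libraries compared, all 18 libraries, each replicate left out, other thresholds and, added later, a correction for GC content and length. The code recovered known changes in simulated data before use.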

Additional observations from a re-analysis of the deposited data

How the results depend on the processing

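Counts depend on scaling and on the fold asked for. With library totals, 1915 genes rose and 7395 fell, and 663 were higher and 1966 lower by the strong rule, in place of 995 each. The GC and length correction tips the balance the other way, with 4590 and 4037 genes (strong 1078 and 880), as do DESeq2 size factors, with 4180 and 4032 (strong 1028 and 943). A strong rule at 1.5-fold gives 1678 higher and 1993 lower. Leaving out a replicate gave 3353 to 3915 rising and 3569 to 4071 falling genes, and 972 to 993 higher and 864 to 1104 lower by the strong rule. Without the replicate block the counts were 3616 and 3855. With the 6 libraries compared and no others they were 3666 and 3855. For the difference between polysome-associated and total mRNA, leaving out a replicate gave 0 to 2 genes and DESeq2 gave 1. The named genes that did not pass were Cs, Pkm and Ppia. With library totals, Cs (−0.41), Pkm (−0.29) and Ppia (−0.35) passed as falls, and Pkm and Ppia changed sign. Pkm also passed with the GC and length correction. Of 194 genes named, 191 passed, and 188 of these kept their call under every alternative. The others are Lyz2, H2-DMa and Cxcl14, which kept their direction. Of 48 lists, 31 kept their relative median within 1 SD of the experiments under every alternative, and all 19 with a relative median of at least 0.5 in size kept its sign. A single cell line and 3 experiments limit these values, and a time course, protein levels and single cells were not tested.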

Other observations

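Some neighbouring genes changed together. Starts were linked when no more than 100 kb apart, with at least 4 genes to a run. By this rule 20 runs held 100 of the strong higher genes (10.1%). Another 11 runs held 74 of the strong lower genes (7.44%). The rule was not applied to other genes, so the share that gene density alone gives was not tested. On chromosome 3, Gbp5, Gbp7, Gbp3, Gbp2b and Gbp2 lie within 144 kb with a median log2 fold change of 5.60. On chromosome 19, the viral RNA sensors Ifit2, Ifit3, Ifit3b and Ifit1 and their neighbour Gm14446 lie within 99.3 kb (median 5.17), and another run on that chromosome holds 7 genes of the Ms4a region of four-pass membrane proteins (median 1.88). Chromosome 11 holds a run of Ccl5, Ccl9, Ccl6, Ccl3, Ccl4 and Wfdc17 (median 4.59) and a run of the growth regulators Slfn5, Slfn9, Slfn8 and Slfn2 (median 2.46). Among falling genes the longest run is the histone cluster of chromosome 13, with 24 of the 29 analysed genes within 233 kb (median −1.47). These runs were picked for print after their values were seen, and neighbours of a family share sequence, so reads may be shared too.

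Of 10 macrophage markers, 6 rose and 2 fell, and their sum was 12816, 13702 and 13274 CPM in control and 14356, 14291 and 15693 CPM with LPS. The direction of that sum depends on scaling, as with library totals it was 15177, 15813 and 15399 CPM in control and 12583, 12976 and 14579 CPM with LPS. Lyz2, lysozyme and the most abundant of them, was at 6978, 8002 and 7747 CPM and at 6667, 5829 and 7825 CPM, with overlapping groups, and it is a fall whose call is lost under most alternatives. Xcr1, a chemokine receptor of cross-presenting dendritic cells, rose from 0.881, 0.636 and 0.702 CPM to 12.4, 9.12 and 6.64 CPM, while Zbtb46, a transcription factor of dendritic cells, fell from 0.516, 1.23 and 1.05 CPM to 0.284, 0.33 and 0.71 CPM. S100a8, a calcium-binding protein of neutrophils, rose from 0.273, 0.113 and 0.234 CPM to 5.9, 2.1 and 3.64 CPM. Of 5 osteoclast markers analysed, 3 rose and 0 fell, and the others did not pass (0.47 and −0.18). Dcstamp, a fusion receptor of osteoclasts, rose within each experiment, from 25.2, 43.1 and 38.7 CPM to 33.4, 60 and 65.7 CPM. With library totals the sum of the osteoclast markers was 41.2, 70.1 and 61.7 CPM in control and 40.6, 71.6 and 80.4 CPM with LPS. Groups were apart for Xcr1 and S100a8 and overlap for Zbtb46 and Dcstamp. Of 5 neutrophil markers S100a8 alone was analysed, and of 4 dendritic cell markers Xcr1 and Zbtb46. Of 3 endothelial markers Cdh5 alone was analysed. It rose from 0.273, 0.704 and 0.38 CPM to 0.782, 0.96 and 0.803 CPM. The markers chosen for T cells, B cells, fibroblasts and epithelium are not among the genes tested, which leave out those with 0 counts in any library.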
